A study of Mus musculus with 4 samples.

Results

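The globin genes examined here are the 7 mouse α-like and β-like genes Hba-x, Hba-a1, Hba-a2, Hbb-y, Hbb-bh1, Hbb-bs and Hbb-bt, of 32285 genes in the count tables. They were taken by symbol, 3 of them embryonic (Hba-x, Hbb-y and Hbb-bh1) and 4 adult. Their unique molecular identifiers (UMIs, one per captured transcript) were followed in erythroid cells, in all other cells and in barcodes of few UMIs. The last were taken as droplets without a cell. An erythroid cell was a barcode with at least 2000 UMIs and at least 20% of them from these 7 genes. Of 23565 barcodes of that depth, 174 passed this rule, with 56, 41, 42 and 35 per library. Lists of 4 values name null replicate 1, null replicate 2, WT replicate 1 and WT replicate 2 in this order.

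Hemoglobin is a tetramer of α-like and β-like chains, each holding a heme group that binds oxygen. In the mouse embryo, primitive red cells from the yolk sac carry embryonic chains, while definitive red cells from the fetal liver carry adult chains. Hba-x encodes the embryonic ζ chain, Hbb-y and Hbb-bh1 encode embryonic β-like chains, Hba-a1 and Hba-a2 encode the adult α chain, and Hbb-bs and Hbb-bt encode adult β chains. The brain makes no red cells of its own at this stage, and those found in dissected tissue come with its blood vessels. Red cell RNA set free during dissociation can enter any droplet.

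The cells came from the medial ganglionic eminence (MGE), a zone of the ventral forebrain where neurons are born, of e14.5 embryos of the strain C57/BL6 ICR mix, and were sequenced with 10x Genomics chemistry. Embryos of St18 (-/+) parents were genotyped, and tissue was pooled within genotype, giving 2 libraries of St18 (-/-) embryos (null) and 2 of St18 (+/+) embryos (WT). The null allele was made with a germline Cre (E2a Cre) acting on a conditional allele, so it is lost in every cell of the embryo. The study calls the libraries of a genotype biological replicates, with WT embryos as littermate controls. The number of embryos in a pool is not given in the sources used here, and p-values measure the spread between these libraries. In comparisons of null with WT, leaving out a library sets a single library against 2. Calls and p-values of such fits measure no spread within the genotype left with a single library.

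The libraries held 70991150 to 92984713 UMIs and 4852 to 7762 barcodes of at least 2000 UMIs. St18, the deleted gene, was at 19.6, 56.8, 35.9 and 46.7 UMIs per 1000000 UMIs (CPM) in the other cells, so the library labelled null replicate 2 lay above both WT libraries. The null allele lacks internal exons and UMIs are counted at the 3′ end, so this level does not check the deletion itself. Values without that library are given where they change a call or a direction. Pairs of libraries shared 7 to 17 barcodes of at least 2000 UMIs, none of them erythroid. No doublet caller was used. In the erythroid cells, the 9 erythroid markers found (among them Alas2 and Slc4a1) summed to 5100 to 10141 CPM of non-globin UMIs, against 6.35 to 7.77 in the other cells. Of these markers, 8 were higher in every library. Microglial markers reached at most 17.2 in the erythroid cells, and C1qa, Csf1r, Cx3cr1 and 4 more of the 8 were at 0. Endothelial markers summed to 155 to 2710 in erythroid cells, against 16.3 to 38.4 in the other cells. Of these, 5 of 6 were higher in every library. Pericyte markers reached 1469 against at most 32.5, while neuron markers were at 751 to 1393 against 3444 to 3809. In erythroid cells of at most 1500 genes, endothelial markers summed to 17.3 to 155 and pericyte markers to at most 17.2. Intervals below are exact, at 95%, and cover counting error only.

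The 7 genes lie in a pair of clusters (GRCm38, GENCODE M21). The α-like genes lie on the plus strand of chromosome 11, with Hba-x (ENSMUSG00000055609) at 32276400 to 32278116, Hba-a1 (ENSMUSG00000069919) at 32283511 to 32284465 and Hba-a2 (ENSMUSG00000069917) at 32296489 to 32297298. The β-like genes lie on the minus strand of chromosome 7, with Hbb-y (ENSMUSG00000052187) at 103851749 to 103853216, Hbb-bh1 (ENSMUSG00000052217) at 103841637 to 103843164, Hbb-bs (ENSMUSG00000052305) at 103826534 to 103828096 and Hbb-bt (ENSMUSG00000073940) at 103812524 to 103813996. In both clusters the order along the strand is embryonic genes first and adult genes after them.

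The RefSeq promoter table (GRCm38.p6) matched 6 of the 7 genes, without Hbb-bh1. The 150 bases before the RefSeq start are shown for 5 of them, because the levels of the genes that they precede set the classes of cells described below. Capitals mark the CACCC motif, the CCAAT motif (read ATTGG where it lies on the opposite strand) and the ATAA of the TATA box, and each line runs 5′ to 3′ on the gene's strand. Hba-a2 is not shown, since its window of 300 bases shared a run of 297 with that of Hba-a1.
Hba-x: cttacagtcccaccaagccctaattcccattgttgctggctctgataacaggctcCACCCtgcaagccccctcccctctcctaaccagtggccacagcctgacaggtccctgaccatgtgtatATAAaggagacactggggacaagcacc
Hba-a1: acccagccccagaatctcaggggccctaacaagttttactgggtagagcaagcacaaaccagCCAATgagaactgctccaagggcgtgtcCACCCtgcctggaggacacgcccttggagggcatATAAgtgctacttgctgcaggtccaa
Hbb-y: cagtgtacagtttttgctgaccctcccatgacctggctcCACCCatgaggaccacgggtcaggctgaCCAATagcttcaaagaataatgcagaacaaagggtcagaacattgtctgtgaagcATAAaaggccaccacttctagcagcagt
Hbb-bs: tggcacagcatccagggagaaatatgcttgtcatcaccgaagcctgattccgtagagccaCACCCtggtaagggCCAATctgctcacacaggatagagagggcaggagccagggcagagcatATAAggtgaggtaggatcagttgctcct
Hbb-bt: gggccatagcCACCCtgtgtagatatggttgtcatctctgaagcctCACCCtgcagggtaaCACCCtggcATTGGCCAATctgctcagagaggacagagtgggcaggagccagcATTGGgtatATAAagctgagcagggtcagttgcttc
These windows are chr11:32276450-32276599 for Hba-x, chr11:32283522-32283671 for Hba-a1, chr7:103853208-103853357 for Hbb-y, chr7:103827929-103828078 for Hbb-bs and chr7:103813924-103814073 for Hbb-bt.

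CACCC, the core of motifs that KLF factors bind, was found in all 6 windows, against 37.4% of 32851 promoter windows of this length searched on both strands. CCAAT was found in 5 of 6, all but Hba-x, against 24.5%. ATAA on the gene's strand at 40 to 20 bases before the start was found in all 6, against 7.53%. Hbb-bt held 3 CACCC, at 140, 104 and 89 bases before the start, and 3 CCAAT, at 80, 75 and 36, where Hbb-bs held 1 of each, at 90 and 76. Hbb-y had its CACCC at 111 and its CCAAT at 83. GATAA, a motif of GATA factors, lay in the Hba-x window alone, at 107, against 13.3% of windows. The letters describe the windows and say nothing of what bound there.

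Erythroid cells made up 0.721%, 0.722%, 0.796% and 0.721% of the barcodes of at least 2000 UMIs, with Clopper-Pearson intervals of 0.545 to 0.936%, 0.519 to 0.979%, 0.574 to 1.07% and 0.503 to 1.002%. They held 88.2%, 83.6%, 85.4% and 83.9% of all globin UMIs of their libraries. The median share of globin in a cell's UMIs was 88.0%, 89.4%, 89.8% and 90.9%, and 144 of the 174 cells were at 80% or above. Near the limit of 20%, 3 cells lay between 20% and 30% and 1 other barcode between 10% and 20%. Their median number of detected genes was 470.5, 465, 410.5 and 424, against 2333 to 2858 in the other cells. However, 14 of them held over 1500 genes (5, 0, 4 and 5 by library). Among these 14 were cells with up to 223 UMIs of endothelial, 81 of pericyte, 114 of progenitor and 42 of neuron markers. Several results that rest on them are given without them as well, but not the levels of single genes.

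Adult chains supplied most globin UMIs of the erythroid cells in every library. Values are shares of a library's erythroid globin UMIs, counted at the 3′ end and not scaled by length. Hbb-bs held the most, with 43.9%, 45.7%, 38.9% and 39.3%. Hba-a1 followed with 17.0%, 17.8%, 19.9% and 20.1%, and Hba-a2 with 13.5%, 14.3%, 15.97% and 15.97%. Hbb-bt stood at 17.0%, 13.3%, 16.4% and 17.0%, and its order against Hba-a1 and Hba-a2 changed between libraries. In null replicate 2 it was below Hba-a2.

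The embryonic genes held less. Hbb-y stood at 7.49%, 7.96%, 7.34% and 6.53%, below every adult gene in each library. Hba-x was at 0.962%, 0.952%, 1.35% and 1.04%. Hbb-bh1 was last, with 0.0156%, 0.00396%, 0.0926% and 0.0277%, from 67, 17, 429 and 109 UMIs. The order Hbb-bs, Hba-a1, Hba-a2, Hbb-y, Hba-x and Hbb-bh1 thus held in all 4 libraries, with Hbb-bt at varying places above Hbb-y.

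The embryonic share was not spread evenly over the erythroid cells. Cells fell into a large group with next to no embryonic UMIs and a small one made mostly of them. In 146 of 174 cells, under 1% of the globin UMIs were embryonic, and the highest of these cells was at 0.107%. No cell lay between 1% and 10%, which, by the limit of 3 counts for a count of 0, allows up to 1.72% of such cells. A single cell, of WT replicate 1, lay at 17.1%, and 3 more were at 32.6%, 44.0% and 49.2%. The cells at 17.1% and 32.6% held 3100 and 6600 genes, with 94 and 223 UMIs of endothelial markers. The remaining 24 cells lay between 51.1% and 79.2%. Cells of at least 50% are called embryonic-rich (7, 7, 5 and 5 cells) and those under 10% embryonic-poor (48, 34, 35 and 29), and the 4 cells between were left out of both. The embryonic-rich cells were 12.5% (5.18 to 24.1%), 17.1% (7.15 to 32.1%), 11.9% (3.98 to 25.6%) and 14.3% (4.81 to 30.3%) of the erythroid cells, with intervals that overlapped.

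**Figure D1:**
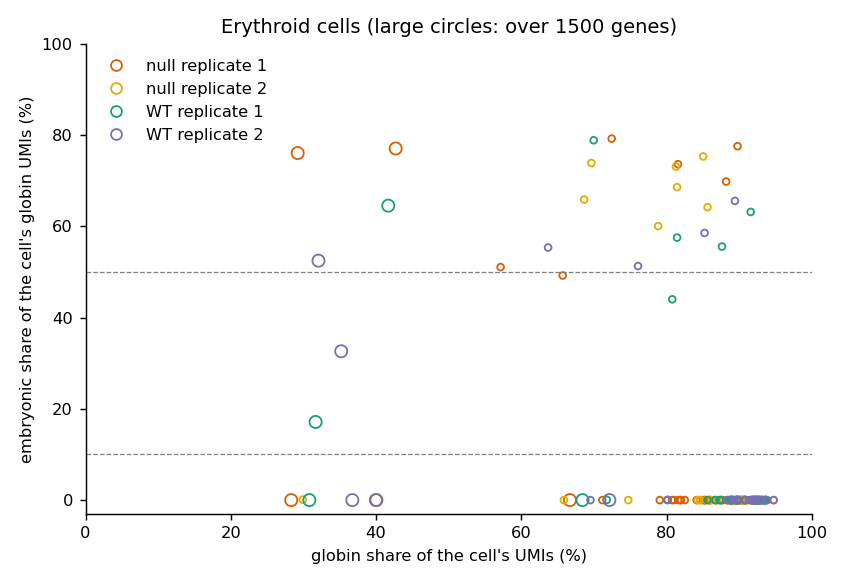
Each circle is an erythroid cell, with the globin share of its UMIs on the x axis and the embryonic share of its globin UMIs on the y axis, both in percent, colored by library. The dashed lines are the limits of 10% and 50%, between which 4 cells lie, and the large circles (over 1500 genes) lie mostly at low globin shares.

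The embryonic-poor cells were close to free of embryonic transcripts although adult transcripts were abundant in them. Over 48, 34, 35 and 29 cells, Hbb-y summed to 4, 10, 4 and 4 UMIs, Hba-x to 3, 1, 0 and 1 and Hbb-bh1 to 2, 0, 1 and 15. No embryonic-poor cell held more than 3 UMIs of Hbb-y or 2 of Hba-x. In contrast, the median embryonic-poor cell held 4082.5, 5809, 5185 and 5219 UMIs of Hbb-bs. A UMI of Hbb-y was seen in 8.33%, 20.6%, 11.4% and 13.8% of the embryonic-poor cells, at a median of 9951, 12074.5, 12894 and 13685 UMIs. It was seen in 6.997%, 12.7%, 6.08% and 6.35% of the other cells under 1% globin, at a median of 6416, 7274, 5848 and 5651 UMIs in all other cells. At 4, 7, 4 and 4 embryonic-poor cells with such a UMI, free RNA and a low level in the cells cannot be told apart.

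The embryonic-rich cells used both kinds of chain. Of their globin UMIs, Hbb-y made up 65.1%, 61.7%, 53.9% and 49.8% and Hba-x 8.25%, 7.38%, 8.78% and 8.87%. Hba-a1 held 13.0%, 15.5%, 17.3% and 22.6% and Hba-a2 7.51%, 8.41%, 10.5% and 12.3%, so Hba-x lay below Hba-a1 in every library and below Hba-a2 in all but null replicate 1. Cells differed in this respect, and Hba-x made up 9.02% to 59.7% of a cell's α-like UMIs. Hbb-y made up 68.5% to 95.6% of a cell's β-like UMIs. Hbb-bs was at 4.13%, 4.74%, 5.25% and 3.18% of globin UMIs, against 49.2%, 51.8%, 44.5% and 43.9% in the embryonic-poor cells. Hbb-bt was at 1.89%, 2.27%, 3.57% and 3.02%, against 19.1%, 14.9%, 18.5% and 19.1%. The classes were defined by these genes, so the differences are a description. Every embryonic-rich cell held UMIs of all 4 adult genes.

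Hbb-bh1, expressed early in primitive red cells, was rare and uneven. It gave 622 UMIs in all erythroid cells, of which 362 lay in a single embryonic-rich cell of WT replicate 1. Only 8 of the 174 cells held at least 10 UMIs of it, and 8 of the 24 embryonic-rich cells held none. In embryonic-poor cells it gave 18 UMIs in all, at most 7 in a cell.

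**Figure D2:**
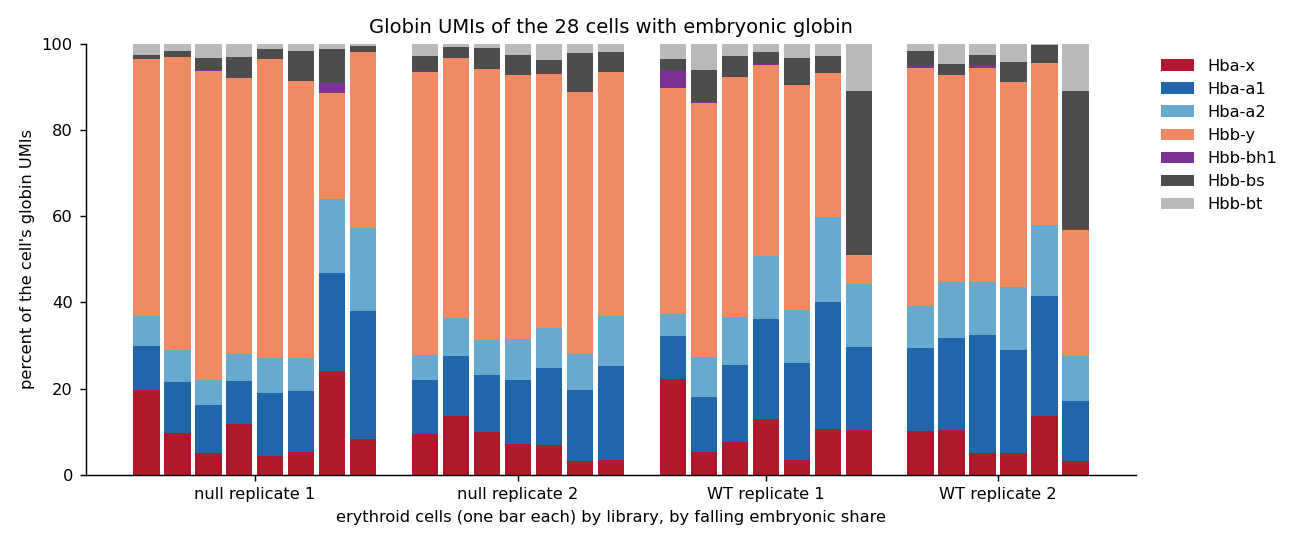
Each bar is one of the 28 erythroid cells with at least 1% embryonic globin, stacked by gene as percent of the cell's globin UMIs and ordered within a library by falling embryonic share. Hbb-y is the largest part of the bar of each cell of at least 50% embryonic globin, Hba-x varies between cells, and Hbb-bh1 is visible in few.

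The members come in near-identical pairs, which bears on how far their split can be read. The coding sequences of Hba-a1 and Hba-a2 differed at 1 of 429 bases, and the 74 bases after the Hba-a1 stop codon were contained whole in the Hba-a2 transcript, so the split of their UMIs is uncertain. Hbb-bs and Hbb-bt also differed at 1 of 444 coding bases, but their 3′ ends shared no run longer than 8 bases. Embryonic and adult genes were far apart, with 74.3% identical coding bases for Hbb-y and Hbb-bs and 62.0% for Hba-x and Hba-a1. The embryonic genes Hbb-y and Hbb-bh1 had 76.4% identical coding bases.

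The adult pairs were split differently in the embryonic-rich cells. Hba-a2 made up 36.6%, 35.2%, 37.8% and 35.3% of adult α UMIs there and 44.9%, 45.4%, 45.3% and 45.4% in embryonic-poor cells. The difference was -8.26, -10.2, -7.52 and -10.03 percentage points, lower in 4 of 4 libraries with a mean of -9.01 ± 1.33 (SD, n = 4; p = 0.13, two-sided exact sign-flip permutation test, the smallest p that 4 libraries allow). Hbb-bt made up 31.5%, 32.4%, 40.5% and 48.7% of adult β UMIs in embryonic-rich cells and 27.9%, 22.4%, 29.4% and 30.3% in embryonic-poor cells. Its difference was 3.56, 10.04, 11.1 and 18.4 points, higher in 4 of 4 libraries with a mean of 10.8 ± 6.08 (SD, n = 4; p = 0.13, same exact test). Both comparisons were chosen after their values were seen, and the first rests on the uncertain split of Hba-a1 and Hba-a2. Without the cells over 1500 genes the mean differences were -9.22 and 9.37 points, and the second no longer held in every library (exact p = 0.25).

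The Hbb-bt share also varied between embryonic-poor cells of a library. It ran from 9.95% to 38.6% (median 27.0%) in null replicate 1, from 3.36% to 32% (20.5%) in null replicate 2, from 5.33% to 39.3% (29.1%) in WT replicate 1 and from 8.88% to 38.9% (28.8%) in WT replicate 2. The SD over cells was 7.07, 7.91, 9.93 and 7.45 points, where counting alone would give 0.684, 0.605, 0.686 and 0.616. Below 15% lay 5, 9, 6 and 3 of the embryonic-poor cells. These held 2238 to 4935, 3116 to 10749, 2830 to 5588 and 2080 to 6191 UMIs. Each lay below the median embryonic-poor cell of its library (9951, 12074.5, 12894 and 13685 UMIs). A link between the Hbb-bt share and a cell's UMIs was not tested. The Hba-a2 share varied far less, with an SD of 2.04, 1.68, 1.79 and 2.03 points against 1.15, 1.06, 0.982 and 0.899 from counting. Cells of a library come from several pooled embryos of a mixed stock, and cells of one embryo could not be told apart.

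**Figure D3:**
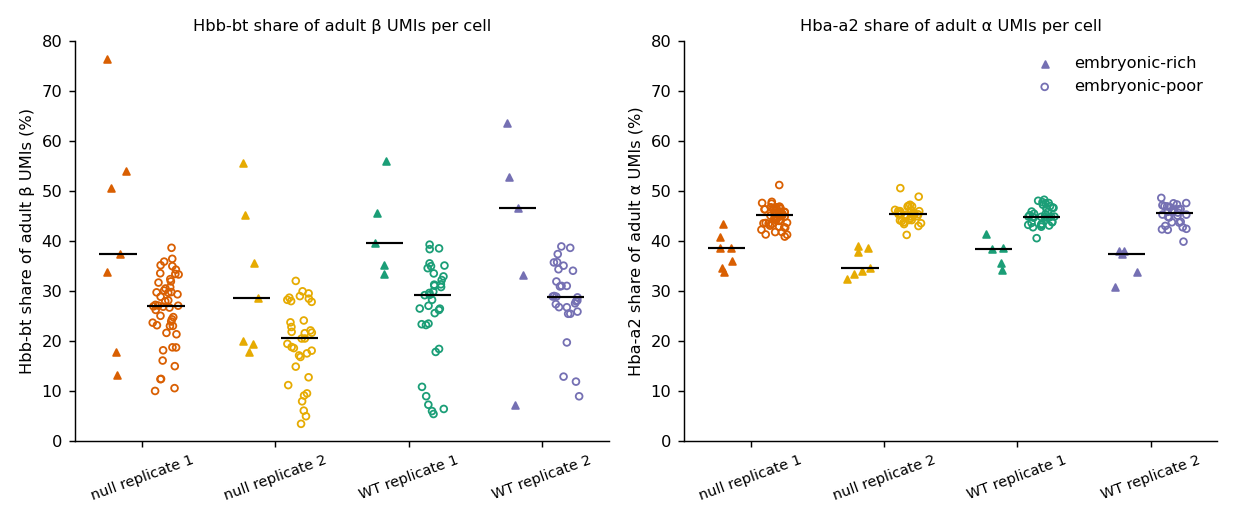
Points are single erythroid cells of the 4 libraries, with triangles for embryonic-rich and circles for embryonic-poor cells, and black lines mark medians. The Hbb-bt share of adult β UMIs (left, percent) ranges widely, while the Hba-a2 share of adult α UMIs (right, percent) is narrow and lower in embryonic-rich cells.

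Next, genes other than the globins were compared between embryonic-rich and embryonic-poor cells, to find what the embryonic-rich cells share that did not define them. As shares of non-globin UMIs, embryonic-rich cells held less RNA for heme synthesis, the red cell membrane and late maturation. They held more of Malat1, Hsd3b6 and Ppp1r15a. UMIs were summed per library and class with the 7 globins left out. The quasi-likelihood test of edgeR, with each library as a block, was adjusted by the Benjamini-Hochberg method over 615 genes. Of these, 119 genes passed an adjusted p of 0.05 (19.3%), 24 higher in embryonic-rich cells (3.9%) and 95 lower (15.4%). Scaled by library totals, 33 were higher and 76 lower, and by DESeq2 36 and 68. The classes differed in more than these genes. The median embryonic-rich cell held 1700, 1939, 1979 and 2121 non-globin UMIs and the median embryonic-poor cell 1029.5, 1139, 943 and 1012. The cells over 1500 genes were 4 of 24 and 8 of 146. The 4 embryonic-rich ones held 7684 and 11216 (null replicate 1), 17465 (WT replicate 1) and 9736 (WT replicate 2) non-globin UMIs. The 8 embryonic-poor ones held up to 12743, 15799 and 11091 in these libraries. Such cells weigh heavily on the summed levels of their libraries, and the levels below include them. Summed erythroid markers were at 832 to 1969 CPM in embryonic-rich and at 9942 to 12667 in embryonic-poor cells.

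Heme synthesis genes were lower in embryonic-rich cells in 4 of the 5 tested of 11 listed, with a list median of -2.89 on the log2 scale, where all 615 genes had a median of -0.11. Levels are in CPM of non-globin UMIs. Alas2, the first enzyme of heme synthesis in red cells, was at 683, 1021, 460 and 166 in embryonic-rich and at 4595, 5319, 4017 and 3062 in embryonic-poor cells, without overlap. Its log2 difference was -2.89 (SE 0.34, adjusted p = 6.8e-05, edgeR). Fech, which inserts the iron, stood at 192 ± 37.2 against 1296 ± 373 (SD, n = 4 libraries; log2 -2.65, SE 0.33, adjusted p = 9e-05, edgeR). Slc25a39, a mitochondrial carrier, stood at 172 ± 92.7 against 1460 ± 489 (log2 -3.08, SE 0.37, adjusted p = 8.1e-05, edgeR). Urod, a decarboxylase of the pathway, rested on 3 UMIs against 120, which is 14.3-fold lower with a counting interval of 4.77 to 70.2.

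Of the iron genes, 4 of 8 were tested and only Slc25a37 passed. This mitochondrial iron importer was at 152, 219, 38.3 and 0 against 3702, 4688, 2436 and 2941 (log2 -5.04, SE 0.44, adjusted p = 1.1e-05, edgeR). The ferritin genes showed another pattern. Fth1 was at 31245, 68986, 29591 and 25860 against 21572, 29007, 22992 and 22171 (log2 0.63, SE 0.31, adjusted p = 0.21, edgeR), and Ftl1 at 30306 ± 9884 against 34044 ± 6433 (log2 -0.17, SE 0.28, adjusted p = 0.716, edgeR). The receptor Tfrc differed by -0.04 (SE 1.44). The list median was -0.11, close to that of all genes.

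Of the genes of redox defense and gas transport, 6 of 10 were tested and 5 were lower (list median -2.08). Prdx2, a peroxiredoxin abundant in red cells, was at 3926 ± 319 against 12504 ± 1775 (log2 -1.63, SE 0.26, adjusted p = 0.000614, edgeR). Gpx1, a glutathione peroxidase, was at 1254 ± 890 against 10537 ± 2402, Bpgm, which makes the 2,3-bisphosphoglycerate that lowers oxygen affinity, at 493 ± 284 against 4358 ± 1233, and Blvrb, a biliverdin reductase, at 1791 ± 933 against 3684 ± 268. The call of Blvrb was lost in some fits, as it passed in 9 of 15 alternatives (highest adjusted p = 0.119, edgeR or DESeq2). Blvrb gave 153 UMIs over 24 embryonic-rich and 861 over 146 embryonic-poor cells, so it was lower as a share and not per cell. Car2, a carbonic anhydrase, also passed. Cat, catalase, stood at 98.1 ± 40.3 against 326 ± 124 and did not (adjusted p = 0.0745, edgeR).

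All 4 membrane genes tested of 17 listed were lower (list median -3.24). Slc4a1, the band 3 anion exchanger, was at 121 ± 16.4 against 1017 ± 331 and Epb41, protein 4.1, at 392 ± 111 against 1935 ± 570. Rhd rested on 3 UMIs against 107, or 12.7-fold lower with a counting interval of 4.24 to 62.7. Of the reticulocyte maturation genes, 9 of 14 were tested and 7 were lower (list median -2.53). Mkrn1, a ubiquitin ligase, was at 75.9, 583, 345 and 55.5 against 7697, 12374, 8543 and 6433 (log2 -5.16, SE 0.42, adjusted p = 6.5e-06, edgeR). Bcl2l1, counted among the 7, passed in 11 of 15 alternatives. Bnip3l, needed to clear mitochondria from reticulocytes, was at 754 ± 195 against 2579 ± 441, while the ubiquitin gene Ubb did not pass (5716 ± 1665 against 8250 ± 1779, adjusted p = 0.269, edgeR).

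Among the 10 largest decreases, 4 genes had no UMI in the embryonic-rich cells of any library. Against a floor of 3 UMIs over these cells (35.6 CPM), Plaat3 was at least 12.7-fold lower, Trim10 at least 11.5-fold, Ubac1 at least 9.75-fold and Pepd at least 8.80-fold. Grina was 39.25-fold lower (6.90 to 1564, from 1 UMI) and Tspo2 33.2-fold (5.81 to 1325, from 1).

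The genes higher in embryonic-rich cells were led by Hsd3b6, a hydroxysteroid dehydrogenase. It was at 1443, 2334, 613 and 388 in embryonic-rich and at 38.3, 22.5, 0 and 0 in embryonic-poor cells, a log2 difference of 6.08 (SE 0.55, adjusted p = 1.2e-05, edgeR). Ppp1r15a, a regulator of the stress response to protein misfolding, was at 1063, 948, 690 and 222 against 25.5, 22.5, 18.2 and 17.2 (log2 5.02, SE 0.52, adjusted p = 4.2e-05, edgeR). Atf4, a transcription factor of the same response, was at 570 ± 171 against 56.8 ± 43.1 (log2 3.39), and Slc38a2, an amino acid transporter, at 910 ± 287 against 164 ± 47.9 (log2 2.52). Pdzk1ip1 (log2 5.14), the imprinted noncoding RNA H19 (3.96), Junb (3.95), Nudt4 (2.42) and Rsrp1 (2.20) were also higher. Each of these was higher in 4 of 4 libraries. Several rested on few UMIs. Pdzk1ip1, H19 and Junb had 47, 27 and 27 UMIs against 3, 4 and 5, with SEs of 0.88, 1.09 and 1.08. Hsd3b6 and Ppp1r15a had 93 and 63 UMIs against 4 and 5. In WT replicate 1, H19 was at 76.7 against 18.2 CPM.

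Malat1, a noncoding RNA that stays in the nucleus, was at 34814, 36462, 16904 and 28135 in embryonic-rich and at 10173, 5838, 5235 and 7981 in embryonic-poor cells, with no overlap (log2 2.01, SE 0.31, adjusted p = 0.000485, edgeR). Per cell, its median share of non-globin UMIs was 4.22%, 2.61%, 3.18% and 1.46% against 0.279%, 0.265%, 0.110% and 0.166%. Meg3, the other tested gene of 5 listed nuclear RNAs, did not pass (log2 0.11, adjusted p = 0.893, edgeR). Of 8 genes of dividing cells, 3 were tested and none passed, with Top2a at 177 ± 110 against 434 ± 215 and Mki67 at 84.2 ± 36.2 against 351 ± 221 (both adjusted p = 0.0637, edgeR). None of the 9 erythroid transcription factors, 7 globin switching regulators and 6 other globin family genes listed had enough UMIs to be tested.

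Markers of other cells were present in both classes. Endothelial markers summed to 0 to 4408 CPM in embryonic-rich libraries and 12.8 to 727 in embryonic-poor, pericyte markers to 0 to 3105 and 0 to 927, neuron markers to 153 to 1677 and 1037 to 1737 and progenitor markers to 1139 to 1942 and 1381 to 2553. Microglial markers were at 0 in all embryonic-rich libraries. None of the 9 tested markers of these types passed. Without the cells over 1500 genes, 170 of 360 genes passed, 78 higher and 92 lower, and 97 of the 107 earlier calls that could be tested passed again.

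**Figure D4:**
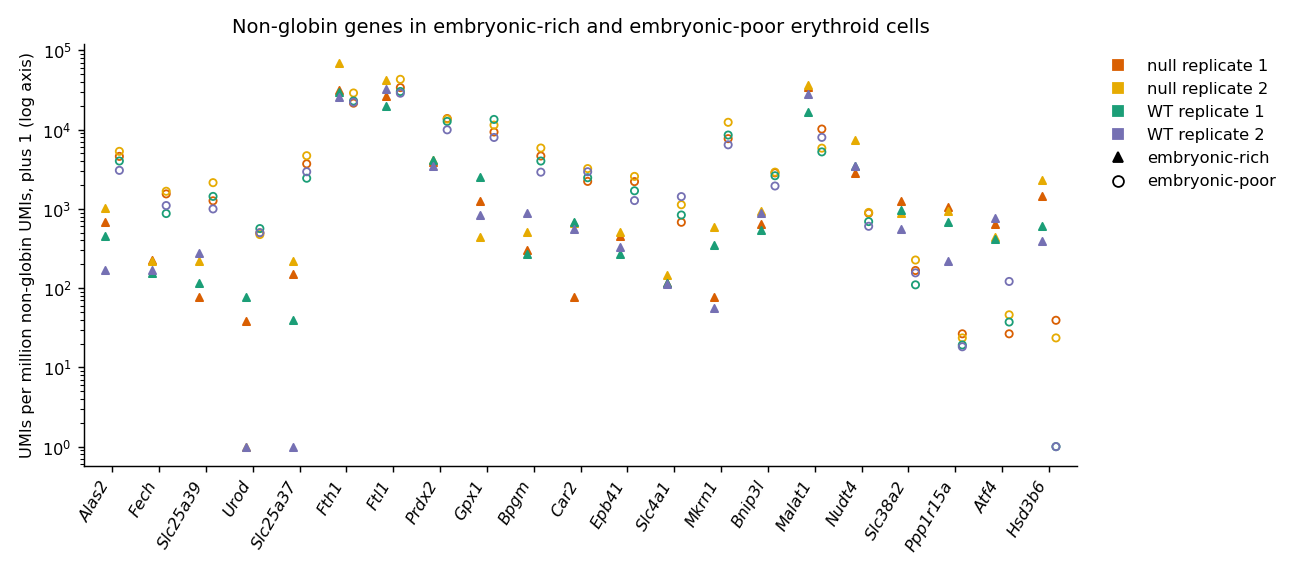
Levels of listed and leading genes, in CPM of non-globin UMIs plus 1 on a log axis, in embryonic-rich (triangles) and embryonic-poor (circles) cells of each library. Alas2 and Mkrn1 lie lower in embryonic-rich cells without overlap, Fth1 and Ftl1 lie close together, and Malat1 and the genes at the right lie higher.

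Over the erythroid cells of each library, the log2 level (plus 1) of Hsd3b6 was the most alike to the embryonic share, with a mean Pearson r over 4 libraries of 0.74. Ppp1r15a (0.69), Atf4 (0.68), Pdzk1ip1 (0.66) and Slc38a2 (0.61) came next. Among the lowest were Mkrn1 (-0.57), Slc25a37 (-0.52), mt-Co1 (-0.46) and March2 (-0.45). Cells of a library share its depth and free RNA, and these correlations are a description. They rest largely on the gap between the classes.

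Null was then compared with WT, which asks whether loss of St18 changed the red cells of the tissue or their globins. The share of erythroid cells was 0.722 ± 0.000620% in null and 0.759 ± 0.0529% in WT, SD over 2 libraries per group, a difference of -0.0369 points (p = 1, two-sided exact permutation test, where 2 against 2 libraries cannot go below 0.333). The embryonic share of erythroid globin UMIs was 8.47%, 8.92%, 8.78% and 7.60%, or 8.70 ± 0.315% in null and 8.19 ± 0.833% in WT (p = 0.667, exact permutation test), and the groups overlapped. Neither difference exceeded the spread between libraries.

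Of the 7 globins, 1 passed the test across genes in erythroid cells, where 98 of 1384 genes did (7.08%; 21 or 1.52% higher and 77 or 5.56% lower in null, and 0 and 26 by library totals or DESeq2). Hbb-bh1 was at 125, 34.9, 773 and 212 CPM and was lower in both null libraries. Its log2 difference of null from WT was -2.44 (SE 0.48, adjusted p = 0.000152, edgeR). Without WT replicate 1, which holds the cell with 362 UMIs, it was -0.73. DESeq2 over all 4 libraries did not call Hbb-bh1 (adjusted p = 0.422). Without null replicate 2 its edgeR difference was -2.25. The other 6 differed by 0.30 to 0.87 with SEs of 0.59 to 1.06 and adjusted p-values of 0.701 to 0.89. Without null replicate 2, Hbb-bs was at 0.044 and the others at -0.49 to -0.035, and none of them passed. Scaled by library totals, which moved the median of all genes by -0.48, Hbb-bt, Hba-x, Hba-a1 and Hba-a2 changed sign. Globins make up most UMIs here, so a change of one alters the scale of all. The groups did not overlap for 2 of 7 globins, Hbb-bs and Hbb-bh1, against 38.2% of all genes.

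Other genes that differed between null and WT included cell type markers. Of the 6 endothelial markers tested, 4 were lower in null, as were 2 of 3 pericyte markers and 1 of 6 progenitor markers (Vim), while 1 of 5 neuron markers (Lhx6) was higher, and 5 null and 9 WT erythroid cells held over 1500 genes. Among cells of at most 1500 genes, 1 of 560 genes passed, which was Hbb-bh1 (log2 -3.45, adjusted p = 0.000774, edgeR). The WT replicate 1 cell with 362 UMIs of Hbb-bh1 held 1091 genes and is among these cells. Of the listed genes, 1 of 7 tested for heme synthesis (Fech, log2 1.30), 1 of 4 for iron (Slc25a37, 1.30), 1 of 5 of the membrane (Epb41, 1.29) and 2 of 10 of maturation (Ube2o, 1.79, and Tent5c, 1.35) were higher in null, against 1.52% of all genes, and none of these lists or of the 7 redox genes tested held a gene that was lower. By library totals or DESeq2, none of these 5 genes passed.

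A balance between the chains was seen to differ, in a comparison chosen after its values were seen. α-like genes made up 31.5% and 33.0% of globin UMIs in null erythroid cells and 37.3% and 37.1% in WT (means of 32.3 ± 1.08% and 37.2 ± 0.131%, SD, n = 2). The difference of -4.89 points left no overlap (p = 0.333, exact permutation test, the smallest possible). It was -4.44 in embryonic-poor cells, -5.50 without cells over 1500 genes, -6.10 in droplets of 100 to under 500 UMIs and -5.71 in other cells under 1% globin. In droplets of 1 to 99 UMIs the groups overlapped. There Hba-a1 held 18.4%, 20.1%, 20.2% and 19.9% of globin UMIs and Hba-a2 13.7%, 15.2%, 15.8% and 14.9%. Hba-x held 1.39%, 1.80%, 0.850% and 3.01%. The groups also overlapped over all other cells, with those of 1% globin or more included. These compartments share the RNA of a library and are not separate evidence. Leaving out the library labelled null replicate 2 gave -5.66.

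Outside erythroid cells, globin RNA was found at a low level. Barcodes of 100 to under 500 UMIs, taken as droplets without a cell, held 0.549, 0.681, 0.742 and 0.553 globin UMIs each, or 0.154%, 0.165%, 0.203% and 0.144% of their UMIs. Other cells under 1% globin held 0.619, 0.873, 0.740 and 0.586 each. A cell thus carried about as many globin UMIs as a droplet with far fewer UMIs. In barcodes of 1 to 99 UMIs, globin made up 0.471%, 0.720%, 0.718% and 0.788% of UMIs, at only 0.00721, 0.0128, 0.00981 and 0.0109 globin UMIs each. These barcodes numbered 1325866, 1624748, 1319342 and 1373263 and held 1.53, 1.77, 1.37 and 1.39 UMIs on average. They are called droplets below, but whether each was a droplet was not tested. Among the other cells under 1% globin, 47.4% to 58.2% had no globin UMI. Hbb-bs was seen in 18.2% to 26.9% of them, Hba-a1 in 8.43% to 12.5%, Hbb-y in 6.08% to 12.7%, Hba-x in 0.726% to 1.56% and Hbb-bh1 in 0.0260% to 0.0710%. Barcodes of 100 to under 500 UMIs held a like number of globin UMIs. Whether these shares are background or expression was not tested.

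The mix of this RNA was compared with that of the erythroid cells of its own library. In droplets of 1 to 99 UMIs the embryonic share was 13.5%, 15.9%, 5.54% and 14.8%, which is 5.07, 6.96, -3.24 and 7.19 points from the 8.47%, 8.92%, 8.78% and 7.60% of the erythroid cells. It was higher in 3 of 4 libraries with a mean of 4.0 ± 4.92 (SD, n = 4; p = 0.25, exact sign-flip permutation test). In droplets of 100 to under 500 UMIs it was 14.9%, 20.004%, 11.1% and 14.9%, above the erythroid cells in 4 of 4 libraries with a mean difference of 6.79 points (exact p = 0.13, the smallest possible). In other cells under 1% globin it was 13.9%, 18.01%, 9.94% and 14.51%, again higher in 4 of 4 with a mean of 5.64 points (exact p = 0.13). Hbb-y carried this, with 13.4%, 17.9%, 9.66% and 12.4% of the globin UMIs of droplets of 100 to under 500 UMIs against 7.49%, 7.96%, 7.34% and 6.53% in erythroid cells. Hba-x was at 1.55%, 2.09%, 1.42% and 2.36% against 0.962%, 0.952%, 1.35% and 1.04%. The comparisons for droplets of 100 to under 500 UMIs and for cells under 1% globin were added after the data were seen.

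**Figure D5:**
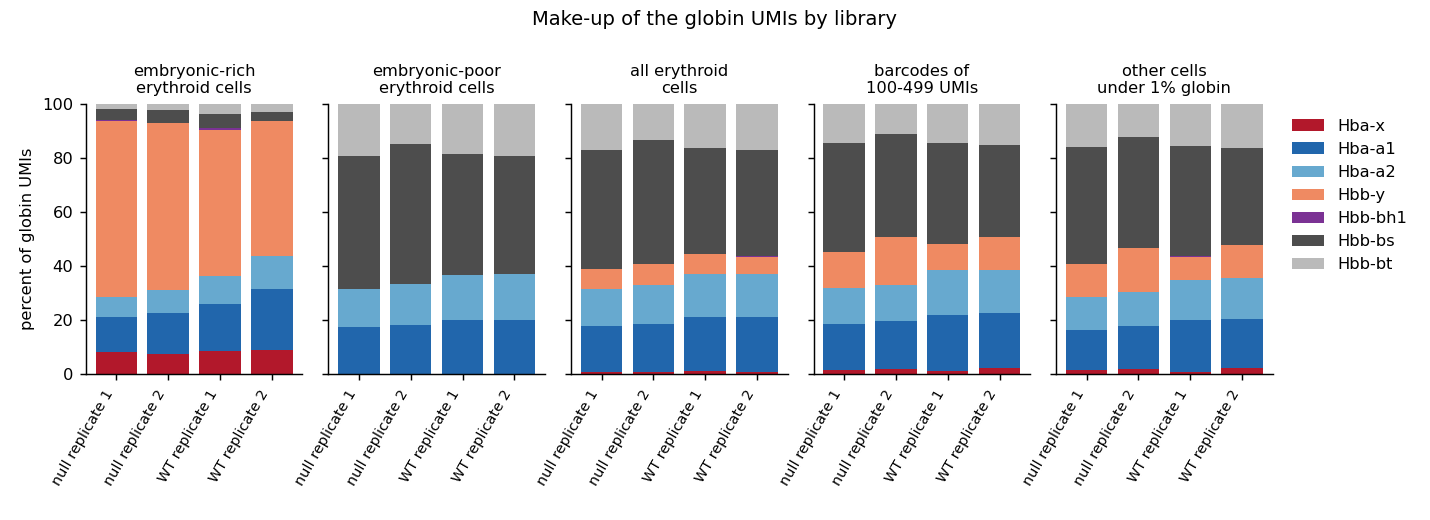
Stacked bars give each gene's percent of globin UMIs in 5 classes of barcodes, one bar per library. The orange Hbb-y part is too small to see in embryonic-poor cells, is the largest part of the embryonic-rich bars and is larger in barcodes of 100 to under 500 UMIs than in all erythroid cells together.

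A few barcodes decided the level in other cells. Over all other cells, globin made up 0.00952%, 0.0103%, 0.0113% and 0.0461% of UMIs, and the embryonic share was 18.8%, 17.8%, 9.94% and 2.96%, lower than in the erythroid cells of WT replicate 2 alone. In that library 12 barcodes of 8728 to 16459 UMIs held 5.57% to 12.19% globin and 2704 to 3857 genes. They supplied 11126 of its 13944 globin UMIs there, of which 4 were embryonic. All 12 held Sst, the gene of the neuropeptide somatostatin, at 2 to 92 UMIs each. It was seen in 5.66% of 777 other neuron cells of like depth. The erythroid gene Alas2 was seen in 4 of the 12, against 0.129% of those cells. Gad2, Lhx6 and Dcx were seen in 11, 11 and 9, against 52.0%, 53.3% and 64.5%. Malat1 was at 16 to 93 UMIs per barcode, against a mean of 147. What these barcodes hold was not tested. In null replicate 1, a single barcode held 248 of the 327 Hba-x UMIs of the other cells. Without barcodes of 1% or more (3, 1, 0 and 12), the levels were 0.00821%, 0.0103%, 0.0113% and 0.00936%. Null and WT differed by -0.0187 points with them (p = 0.333, exact permutation test) and by -0.00108 without (exact p = 0.667).

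Other cells were gated by markers into neurons and progenitors. Globin made up 0.00982%, 0.0118%, 0.0134% and 0.0762% of UMIs in neurons and 0.00922%, 0.00865%, 0.00846% and 0.00745% in progenitors, higher in neurons in 4 of 4 libraries with a mean of 0.0193 ± 0.0330 points (SD, n = 4; exact sign-flip p = 0.13, the smallest possible). Without barcodes of 1% or more the mean was 0.00359. Progenitors were deeper, at a median of 9004, 8607, 8137 and 7543.5 UMIs against 5746, 7148.5, 5403 and 5263. Per cell, without those barcodes, progenitors held 0.641, 0.863, 0.697 and 0.572 globin UMIs and neurons 0.604, 0.879, 0.750 and 0.579, so numbers per cell were close where shares of UMIs were not. The 34, 24, 26 and 39 cells gated as microglia held 15, 13, 39 and 42 globin UMIs, and their share of UMIs was 0.00544%, 0.00532%, 0.0265% and 0.0137%. It was below the rest of the other cells, endothelial cells and ties included, in 3 of 4 libraries (mean -0.00663 ± 0.0198 points, SD, n = 4; exact p = 0.625). Without the barcodes of 1% or more it was above them by 0.00300 on average.

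None of the 6 globins tested in other cells differed between null and WT, where 7 of 15521 genes passed (0.0451%; 3 higher and 4 or 0.0258% lower in null, 13 and 7 by library totals, 88 and 352 by DESeq2, and 2748 genes at an unadjusted p under 0.05). Hbb-bh1 had too few UMIs to be tested. Hbb-bs was at 36.6, 42.6, 46.2 and 199 CPM (log2 -1.78, SE 0.53, adjusted p = 0.184, edgeR) and Hbb-bt at 13.2, 12.6, 17.3 and 76.6 (log2 -2.001, SE 0.55, adjusted p = 0.161, edgeR). Hba-a1 and Hba-a2 differed by -1.98 and -2.06 (adjusted p = 0.16 and 0.164, edgeR). Hbb-y was at 12.3, 16.5, 9.94 and 11.4 and Hba-x at 5.62, 1.92, 1.16 and 2.18 (adjusted p = 0.358 and 0.334, edgeR). The groups did not overlap for 5 of the 6, against 56.7% of all genes. With the 12 barcodes and others of 1% or more left out, the adult genes differed by -0.61 to -0.20 and none passed (adjusted p = 0.147 to 0.529, edgeR). DESeq2 called none of the 6. Without WT replicate 1 the 4 adult genes were at -2.78 to -2.47, which leaves WT replicate 2 with its 12 barcodes as the only WT library. Without WT replicate 2 the adult genes were at -0.61 to -0.40. The embryonic genes were higher in null in such fits, with Hbb-y at 0.45 without null replicate 1 and Hba-x at 1.56 without WT replicate 2. In null replicate 1, Hba-x was at 1.36 CPM in cells under 1% globin, against 5.62 in all other cells.

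In droplets of 1 to 99 UMIs, 59 of 10040 genes passed (0.588%; 21 higher and 38 or 0.378% lower in null, 30 and 23 by library totals, 4 and 9 by DESeq2) and 1 of the 7 globins did. Hbb-bt was at 753, 737, 1380 and 1295 CPM, lower in both null libraries (log2 -0.93, SE 0.12, adjusted p = 0.000846, edgeR). Without each library in turn it was at -0.96 to -0.89. In droplets of 100 to under 500 UMIs it was at 223, 184, 295 and 218, where the groups overlapped, and it did not pass (log2 -0.44, adjusted p = 0.0894, edgeR). Summed with Hbb-bs it did not pass either (-0.50, adjusted p = 0.168, edgeR). Hba-a1 (867, 1445, 1447 and 1565) and Hba-a2 (648, 1098, 1137 and 1174) were lower in both null libraries without passing (log2 -0.45 and -0.47, adjusted p = 0.308 and 0.294, edgeR). Hbb-bs, Hbb-y, Hba-x and Hbb-bh1 differed by -0.33, 0.27, -0.66 and -1.70 (adjusted p = 0.181 to 0.784, edgeR). These differences turned on single libraries. Without null replicate 2, Hba-a1 was at -0.93, Hba-a2 at -0.96, Hbb-bs at -0.73, Hba-x at -1.33 and Hbb-y at -0.27. Without null replicate 1, Hba-a1, Hba-a2 and Hbb-bs were at -0.093, -0.11 and -0.018, while Hbb-y was at 0.66 and Hbb-bh1 at -2.86. Without WT replicate 1, Hba-x was at -1.33 and Hbb-bh1 at -2.18, and without WT replicate 2, Hbb-y was at 1.204. The groups did not overlap for 4 of 7 globins, against 43.7% of all genes.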

How the data were processed

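Per the file headers and the submitters' processing notes, the authors had counted UMIs per gene and barcode with Cell Ranger on GRCm38 (5.0.1 in the notes, 4 in the headers), and deposited the raw counts of all barcodes, unfiltered, for each of 4 libraries. UMIs are counted at the 3′ end and were not scaled by length. Ahsp was not matched by symbol.

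Barcodes of at least 2000 UMIs were called cells, and those of at least 20% globin UMIs erythroid. No doublet caller was run. The UMIs of a class were added up within each library and tested with edgeR 4.0.16 (TMM, filterByExpr, quasi-likelihood, two-sided) under R 4.3.3, with Benjamini-Hochberg adjustment at 0.05. Shares were compared by exact permutation over libraries. Sums, permutations and plots were made in Python 3.11.15 (scipy 1.17.1, numpy 2.4.6, matplotlib 3.10.9, pandas 2.3.3). The alternatives were library totals, DESeq2 1.42.0, no filter on low counts, other limits on UMIs, globin, genes and mitochondrial share, summed near-identical copies and each library left out. Embryonic-rich and embryonic-poor cells were compared with the library as a block and the globins left out of the counts. The fits were tested on simulated data with known fold changes.

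Other cells with at least 3 detected microglial markers were gated as microglia, and those with at least 3 endothelial markers as endothelial cells. The rest were gated as neurons or progenitors by the larger summed marker count, or as ties. Microglia were compared with all the other gates pooled. The genes named were the 7 globins, St18, up to 10 genes per direction between embryonic-rich and embryonic-poor cells with a mean of at least 100 CPM and the same direction in every library, and up to 4 genes of each list by their level. A few further listed genes were named after their values were seen, to complete a count. Some genes that this rule would name are not reported here. Positions are from GENCODE M21 and promoters from RefSeq (GRCm38.p6). The members and gene lists were chosen with earlier results of these data known.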

Additional observations from a re-analysis of the deposited data

Results flagged for a closer look

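Barcodes of 500 to under 2000 UMIs, between the droplets and the cells, entered no comparison above. Values were listed there only where a null library was above both WT libraries, so the direction of the list was set by this rule. The share of all genes with such values was not counted. Hba-x was at 40.6 CPM in null replicate 1 and 26.1 in null replicate 2, against 16.6 and 19.6 in WT. Hbb-y was at 143.6 and 192 in null, against 134 and 98.5 in WT. Hbb-bh1 was at 0.749 in null replicate 1, from 8 UMIs, against 0.153 and 0.571 in WT. In null replicate 2 it was at 0.228, from 4 UMIs. In null replicate 2, Hba-a1 was at 278 (248 and 176 in WT), Hba-a2 at 212 (203 and 141), Hbb-bs at 556 (457 and 312) and Hbb-bt at 175 (166 and 134). Null replicate 1 lay below both WT libraries for these 4 genes, at 159, 120, 309 and 110. All 7 globins together made up 0.144% of UMIs in null replicate 2, against 0.122% and 0.0882% in WT. In that library 26 of these barcodes held 5% to under 20% globin, against 1 in the other null library and 0 and 1 in the WT libraries. This is also the library labelled null in which St18 lay above both WT libraries. None of these differences was tested.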

How the results depend on the processing

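No paired analysis was possible because the labels give the libraries no replicate numbers, and the numbers used here only follow their order of deposit. In erythroid cells, the number of genes that differed between null and WT was 26 by library totals and by DESeq2, 3 with at least 50% globin, 1 with at most 1500 genes, and 44 to 138 with each library left out. The number of globins among them was 0 by DESeq2 and 0 to 1 with each library left out. Library totals moved the median of all genes by -0.48 and turned Hbb-bt to -0.090, Hba-x to -0.27, Hba-a1 to -0.14 and Hba-a2 to -0.15. With at least 50% globin these were -0.20, -0.20, -0.22 and -0.22, and with at most 1500 genes -0.49, -0.62, -0.56 and -0.56, with Hbb-bs at -0.15. With each library left out, Hbb-bt ranged from -0.087 to 0.92, Hbb-y from -0.035 to 1.44, Hba-x from -0.49 to 1.05, Hba-a1 from -0.35 to 1.015 and Hba-a2 from -0.37 to 1.017, with the negative values without null replicate 2. Hbb-bh1 ranged from -3.36 to -0.73. In other cells, the number of genes was 20 by library totals, 440 by DESeq2, 602 with no filter on low counts, 16 at 1000 or 5000 UMIs and 109 to 3690 with each library left out. The number of globins was 4 with no filter and 0 to 4 with each library left out, the 4 being without WT replicate 1. Hbb-y and Hba-x turned to -1.96 and -1.72 with at least 50% globin, and Hba-x to -0.19 in cells under 1% globin. In droplets, the number of genes was 13 by DESeq2, 175 with no filter, 862 in droplets of 100 to under 500 UMIs and 43 to 376 with each library left out. The number of globins was 5 with no filter, 0 with copies summed, 0 in the deeper droplets and 2 to 5 with each library left out, the 5 being without null replicate 2. Hba-a1 ranged from -0.93 to -0.093, Hba-a2 from -0.96 to -0.11, Hbb-y from -0.29 to 1.204 and Hba-x from -1.33 to 0.65. Between embryonic-rich and embryonic-poor cells, 64 to 128 genes passed with each library left out, the 64 being without null replicate 2. Of the genes named there, Junb and Pepd passed in 12 of 13 alternatives and Rsrp1, Rhd and Tent5c in 14 of 15. The difference in the share of erythroid cells was 0.0471 with limits of 200 genes and 10% mitochondrial UMIs, 0.0204 with at most 1500 genes and -0.0743 to 0.00055 with each library left out. The difference in embryonic share ranged from -0.0843 to 1.09 with each library left out. It was 1.56 with at least 50% globin and 1.19 with at most 1500 genes, and the groups overlapped in both. Microglia minus the rest was 0.00300 under 1% globin and -0.0139 to 0.00206 with each library left out. The cause of these changes was not tested. Few erythroid cells per library limit the comparisons among them, and 2 libraries per genotype those of null with WT.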
